A study of Sus scrofa with 11 samples.

Results

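The transcription factors that specify and maintain skeletal muscle were followed in the *M. semimembranosus* (SM), a thigh muscle, of purebred Duroc gilts fed different amounts of protein. The list holds 7 genes, the myogenic regulatory factors MYOD1, MYOG, MYF5 and MYF6, the satellite cell factor PAX7, and the myocyte enhancer factors MEF2A and MEF2C. Every non-control probe set that the platform annotation assigns to one of these symbols and to no other gene was taken, which gave 7 of the 23999 probe sets tested. They read 4 of the 7 genes, with 2 probe sets each for MYOD1, MYF6 and MEF2A and 1 for MYF5. MYOG, PAX7 and MEF2C have no probe set with a single symbol and were not analysed here. The high protein (HP) diet held 217 g/kg crude protein and 13 g/kg lysine, and the low protein (LP) diet 128 and 7 g/kg at the same energy density. The gilts, about 10 weeks old at the start, ate their diet for 63 days, and muscle was sampled at slaughter from 6 HP and 5 LP pigs. The replicate is the pig: RNA of each was hybridised to 1 Affymetrix Porcine Genome array. The pigs came from 2 pens, were blocked on starting weight and their slaughter date was recorded, but the sources used here do not say which pig had which, so they cannot be told apart from diet.

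The myogenic regulatory factors are basic helix-loop-helix proteins that bind DNA as dimers with the ubiquitous E proteins and switch on muscle genes, while ID proteins take up the E proteins and so hold them back. MYF5 and MYOD1 commit cells to the muscle lineage, and in adult muscle they are known from activated satellite cells, the stem cells that lie beside the fibres and carry PAX7. MYOG drives terminal differentiation. MYF6, also called MRF4, is the family member known to predominate in mature fibres of rodents. MEF2 factors are MADS-box proteins that act together with the regulatory factors on many of the same genes and are controlled by class II histone deacetylases, calcineurin and p38 kinase. In whole muscle a lower number of cells of a type and less RNA per cell cannot be told apart.

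All 4 measured genes were detected in the muscle of every pig. A probe set counted as detected on an array if it was brighter than all 23 negative controls there, a limit between 1.96 and 3.58 on the log2 scale of the deposited levels. All 7 probe sets passed it on 11 of 11 arrays, against 70.2% of all tested probe sets. The margin was widest for the brighter MEF2A probe set, which lay between 8.05 and 9.46 log2 units above the limit. The brighter MYF6 probe set lay between 6.34 and 7.79 above it, the brighter MYOD1 probe set between 5.14 and 6.67, and MYF5 between 3.15 and 4.15. The dimmer MYOD1 probe set was the closest to background, with margins from 0.25 in LP replicate 5 to 1.97. Different probe sets bind with different strength, so these margins describe detection and do not rank the genes by transcript number.

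The tissue carried the label's markers. All 7 measured genes of a skeletal muscle marker list, among them the titin gene TTN and the muscle creatine kinase gene CKM, were above the limit on every array. So were all measured markers of adipocytes (6), endothelium (7), fibroblasts (5), smooth muscle and pericytes (5) and macrophages (4), as well as 4 of 5 for lymphocytes, 2 of 4 for nerve and 1 of 2 for red blood cells. Of all tested probe sets, 70.2% were above it on every array. The mean level of each of these lists overlapped between the diets. For adipocytes it ranged from 7.53 to 8.61 in HP and from 7.80 to 8.65 in LP, and for fibroblasts from 9.88 to 10.28 and from 9.63 to 10.12. The median difference, LP minus HP, was -0.31 for macrophages (4 of 4 genes below 0) and -0.26 for fibroblasts (4 of 5). For skeletal muscle it was -0.23 (7 of 7), and 0.00 after quantile normalization. Nerve (-0.22), smooth muscle and pericytes (-0.14) and endothelium (-0.10) also lay below 0. Lymphocytes (0.21, 5 of 5 genes above 0), red blood cells (0.15) and adipocytes (0.05) lay above 0. Over all genes the median was -0.04. Of the 45 measured marker genes 1 passed an unadjusted limma p of 0.05 between LP and HP, the pericyte gene RGS5 (-0.44, exact permutation p = 0.00866), where 1.57% of all genes were higher and 3.16% lower in LP. The fibroblast gene DCN passed in the exact permutation test but not in limma (-0.28, exact permutation p = 0.0346). The part of these cells in the levels of the myogenic factors was not tested. No 2 arrays held identical values, and all had been scaled by the authors to the same median of 6.72.

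MYOD1, the factor able to turn fibroblasts into muscle cells, varied more between pigs than between diets. On the brighter probe set its level was 7.95, 8.85, 8.62, 9.01, 9.06 and 8.73 in HP replicates 1 to 6. In LP replicates 1 to 5 it was 8.84, 8.04, 8.98, 8.92 and 8.12. HP replicate 1 and LP replicates 2 and 5 were low, the other 8 pigs lay between 8.62 and 9.06, and the diets overlapped. The dimmer probe set read 3.37, 4.18, 3.93, 4.69, 4.29 and 4.03 in HP and 4.51, 3.78, 4.05, 4.24 and 3.23 in LP. The same 3 pigs had its lowest levels. The highest pig exceeded the lowest by 2.16-fold on the brighter and 2.75-fold on the dimmer probe set.

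MYF5, which acts earliest in the embryonic muscle lineage, had levels of 6.32, 6.62, 6.11, 7.22, 6.11 and 6.13 in HP replicates 1 to 6. In LP replicates 1 to 5 it read 6.70, 6.24, 6.98, 6.24 and 6.56. HP replicate 4 was the highest pig and HP replicates 3, 5 and 6 were the lowest, with all LP pigs in between.

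MYF6, the regulatory factor of mature fibres, lies next to MYF5 in the pig genome (Sscrofa11.1 gene order). Its brighter probe set read 10.34, 9.95, 9.58, 10.89, 10.02 and 9.32 in HP replicates 1 to 6. In LP replicates 1 to 5 the levels were 10.12, 10.07, 10.04, 10.19 and 10.62. The HP pigs spanned the whole range, with replicate 4 at the top and replicate 6 at the bottom, while 4 of the 5 LP pigs lay within 10.04 and 10.19 and LP replicate 5 stood above them. The dimmer probe set, which was designed on the same sequence record, read 9.86, 9.29, 9.08, 10.51, 9.68 and 8.88 in HP and 9.51, 9.65, 9.54, 9.67 and 10.25 in LP. It placed the same pigs at the top and bottom. The highest pig exceeded the lowest by 2.96-fold on the brighter and 3.09-fold on the dimmer probe set, the widest span of the 4 genes. The SD was 0.56 in HP and 0.24 in LP on the brighter probe set, a contrast that was not tested.

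MEF2A, the MEF2 factor of the list with a probe set here, had the smallest spread of the 4 genes. The brighter probe set read 11.95, 11.81, 11.41, 11.62, 11.75 and 11.70 in HP replicates 1 to 6 and 11.64, 11.77, 11.63, 11.87 and 11.66 in LP replicates 1 to 5. The dimmer one read 10.74, 10.40, 10.02, 10.35, 10.18 and 10.54 in HP and 10.28, 10.53, 10.44, 10.40 and 10.35 in LP. HP replicate 1 was the highest and HP replicate 3 the lowest pig on both, and all LP pigs lay in between. The highest pig exceeded the lowest by 1.45-fold and 1.64-fold. The SD between pigs of the same diet was 0.15 on the brighter probe set. Of the 16849 probe sets detected on all arrays, 6.02% had a lower one (their median was 0.28). On the dimmer MEF2A probe set the SD was 0.20, and 20.5% of the 16849 had a lower one. The SD was 0.39 for MYF5, and 0.43 to 0.49 for MYOD1 and MYF6, above 80.3% to 86.1% of these probe sets.

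**Figure D1:**
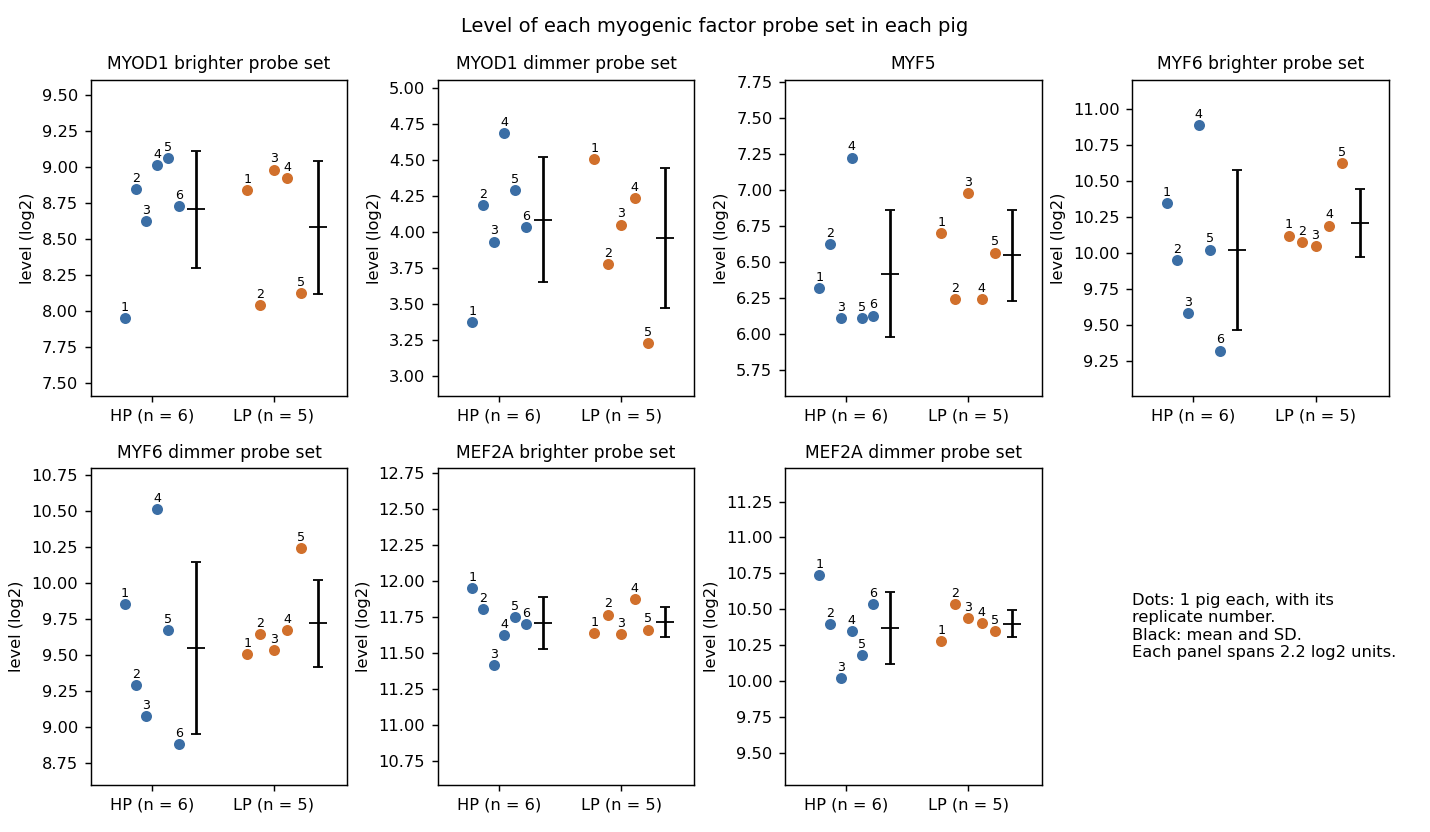
Level of each of the 7 probe sets (y axis, log2, the same span in every panel) in 6 HP and 5 LP pigs (x axis), with 1 dot per pig, its replicate number and the mean with its SD in black. The diets overlap in every panel, the MEF2A dots are the most tightly packed, and HP replicate 1 with LP replicates 2 and 5 sit low for MYOD1.

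The question of the design was whether protein restriction changed expression in the muscle, and none of the 7 probe sets differed between LP and HP beyond the spread of the pigs. The study set its cut-off of 0.05 on P-like values from puma, which is another statistic. Here the comparison was made with limma over all 23999 probe sets, two-sided, with the threshold at an unadjusted p no higher than 0.05. None of the 7 passed it, where 5.11% of all probe sets did (1227, of which 515 were higher and 712 lower in LP). In the exact permutation test over the 462 assignments of the pigs to 6 and 5, the smallest p among the 7 was 0.511. After Benjamini-Hochberg adjustment over all probe sets 0% passed in limma, and the smallest adjusted p among the 7 was 0.968.

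MYOD1 was at 8.70 ± 0.41 (SD, n = 6) in HP and 8.58 ± 0.46 (SD, n = 5) in LP on its brighter probe set. The difference, LP minus HP, was -0.12 on the log2 scale (standard error 0.25, limma p = 0.631, exact permutation p = 0.671). The dimmer probe set gave -0.12 as well (standard error 0.27, exact permutation p = 0.658). MYF5 differed by 0.13 (standard error 0.23, exact permutation p = 0.606). MYF6 was at 10.02 ± 0.56 (SD, n = 6) in HP and 10.21 ± 0.24 (SD, n = 5) in LP on the brighter probe set, where all 5 LP pigs lay above the HP mean. The difference was 0.19 (standard error 0.26, exact permutation p = 0.511, limma p = 0.471), and 0.17 on the dimmer probe set (standard error 0.28, exact permutation p = 0.578). On the dimmer probe set 3 of the 5 LP pigs lay above the HP mean. For MEF2A the difference was 0.01 on the brighter (standard error 0.12, exact permutation p = 0.942) and 0.03 on the dimmer probe set (standard error 0.14, exact permutation p = 0.807).

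The intervals show which differences these data leave compatible with the measured levels. For the brighter MEF2A probe set the 95% confidence interval of LP over HP ran from 0.840 to 1.20-fold, and for the dimmer one from 0.828 to 1.26-fold. It was wider for MYF6, from 0.771 to 1.69-fold on the brighter and from 0.733 to 1.73-fold on the dimmer probe set. For MYF5 it ran from 0.768 to 1.55-fold. For MYOD1 it ran from 0.625 to 1.35-fold on the brighter and from 0.611 to 1.38-fold on the dimmer probe set.

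**Figure D2:**
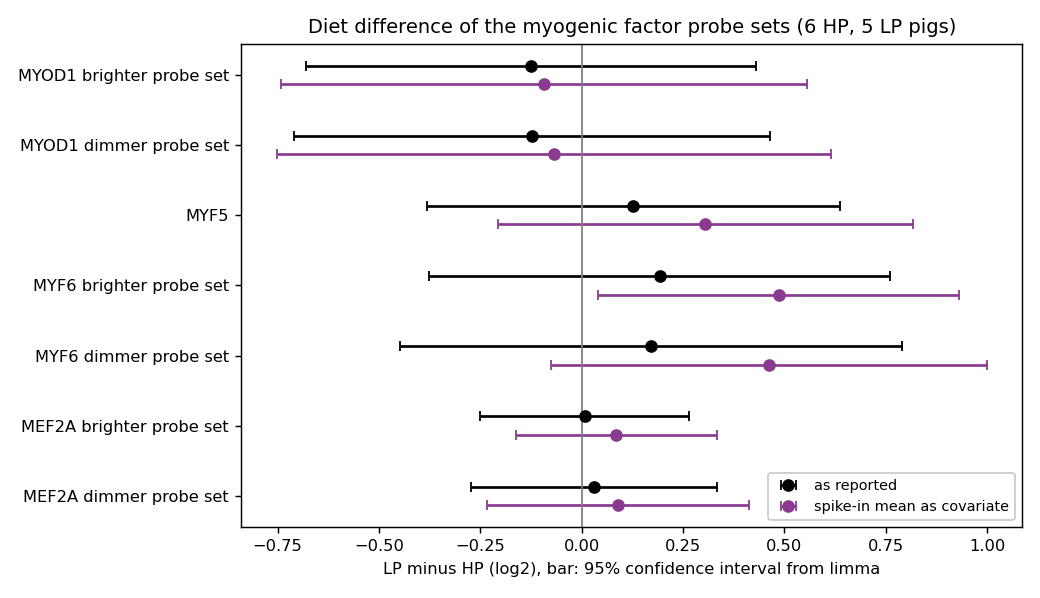
Difference LP minus HP (x axis, log2) of each probe set (y axis) with its 95% confidence interval from limma, as reported in black and with the mean of the hybridisation spike-ins as a covariate in purple. All black intervals include 0, and the purple interval of the brighter MYF6 probe set, from 0.04 to 0.93, does not.

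The MYF6 level of a pig ran with a technical signal of its array. Hybridisation spike-ins are bacterial and phage transcripts (BioB, BioC, BioD and Cre) added in fixed amounts, so they hold no muscle RNA. Their mean level lay between 11.30 and 12.22 on the log2 scale and was lower in LP by 0.26 (difference -0.26, exact permutation p = 0.186). Over the 11 pigs, after the diet means were removed, the brighter MYF6 probe set and the spike-in mean had a Pearson correlation of 0.77 and a Spearman correlation of 0.82. The Pearson value was 0.82 within HP, 0.38 within LP, 0.62 without the 2 pigs of the most extreme MYF6 level, and 0.67 after quantile normalization of the arrays. For the other genes the correlation was 0.53 (MYF5), 0.09 (brighter MYOD1 probe set) and 0.60 (brighter MEF2A probe set, -0.51 after quantile normalization). A measure of RNA degradation, the actin signal at its 3′ end less that at its 5′ end, was lower in LP by 0.43 (difference -0.43, exact permutation p = 0.123). It correlated with the brighter MYF6 probe set at 0.59. With the spike-in mean it correlated at 0.81 (0.84 within HP, 0.94 within LP), so these array measures are not separate signals. These correlations are descriptions over arrays that share their scaling, and the part of the spike-ins in the MYF6 result was not tested.

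With the spike-in mean as a covariate, MYF6 was higher in LP on the brighter probe set, by 0.49 (standard error 0.20, 95% confidence interval 0.04 to 0.93, adjusted p in limma 0.702). The dimmer probe set gave 0.46 and did not pass (standard error 0.24). In this fit 6.85% of all probe sets passed the threshold, 905 higher and 738 lower in LP. HP replicates 1, 2 and 4 had the highest spike-in signal. Without these 3 arrays, a choice made with earlier results known, the brighter probe set gave 0.57 and passed (standard error 0.21, adjusted p in limma 0.605) and the dimmer one 0.51 and did not, in a fit where 7.85% of all probe sets passed. HP replicates 1 and 4 are also the HP pigs with the highest MYF6 levels. MYF5 moved to 0.31 with the covariate and to 0.43 without the 3 arrays. MYF5, MYOD1 and MEF2A passed in neither fit.

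**Figure D3:**
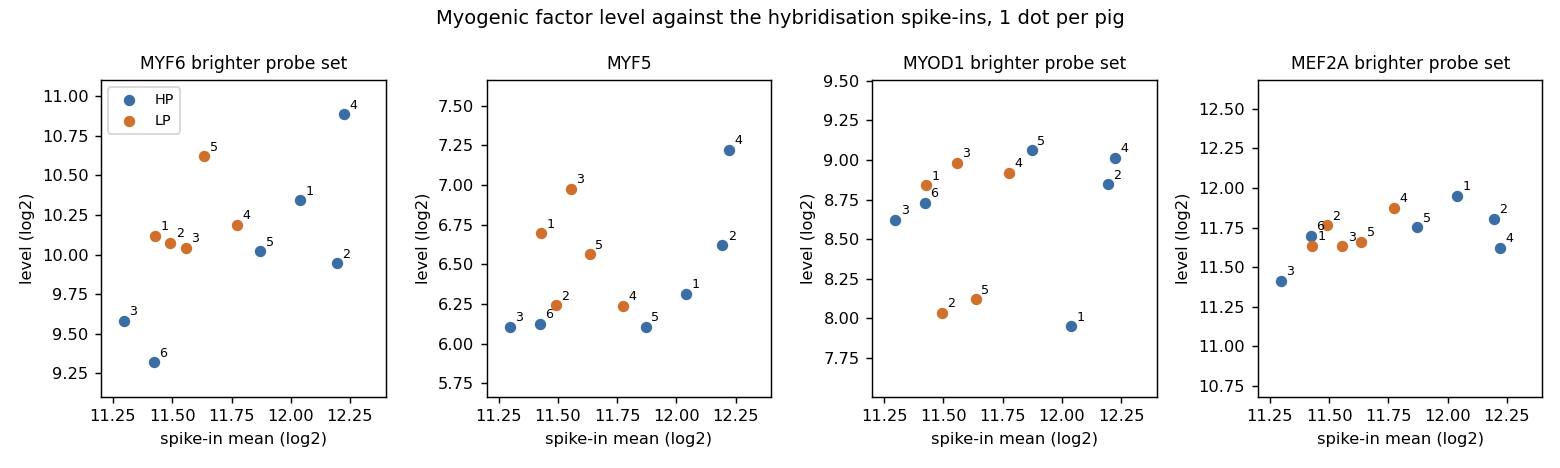
Level of 1 probe set per gene (y axis, log2, the same span in every panel) against the mean of the hybridisation spike-ins of the same array (x axis, log2), with 1 dot per pig, blue for HP and orange for LP, and its replicate number. MYF6 climbs from HP replicates 3 and 6 at the lower left to HP replicate 4 at the upper right, and the 3 low MYOD1 pigs are spread along the axis.

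The probe sets of the same gene moved together from pig to pig. After the diet means were removed, the pair of MYF6 probe sets had a Pearson correlation of 0.98 over the 11 pigs, the MYOD1 pair 0.86 and the MEF2A pair 0.74. The MEF2A value rested on the extreme pigs and was 0.14 without the 2 farthest. Between genes, the brighter MYOD1 and MYF6 probe sets correlated at -0.11 and MYOD1 and MYF5 at 0.35. The neighbouring genes MYF5 and MYF6 correlated at 0.62, with 0.81 within HP, -0.10 within LP and 0.40 without the 2 pigs of the most extreme MYF5 level. Their Spearman correlation was 0.30, and 0.24 with the dimmer MYF6 probe set. HP replicate 4 had the highest level of both. The MEF2A probe sets correlated with the brighter MYOD1 probe set at -0.27 and -0.49, and with the brighter MYF6 probe set at 0.20 and 0.12. After quantile normalization the MYF6 values turned to -0.67 and -0.20. MYF5 and the brighter MEF2A probe set correlated at -0.20, and at -0.81 after quantile normalization.

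**Figure D4:**
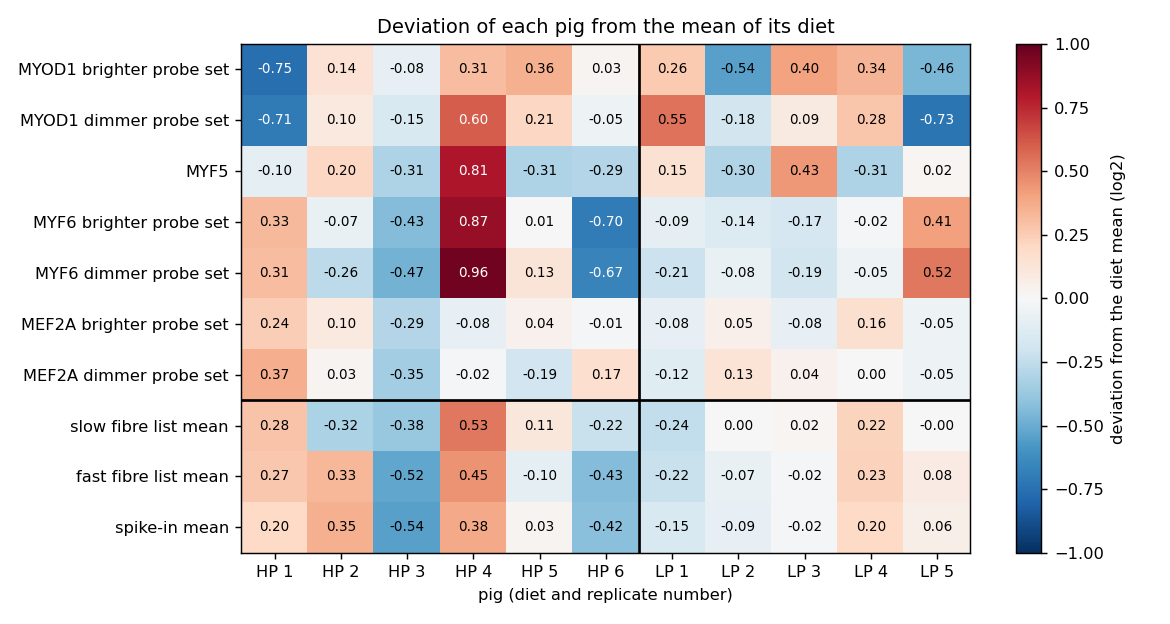
Deviation of each pig (x axis, diet and replicate number) from the mean of its diet, in log2 units (colour and printed value), for the 7 probe sets, the means of the slow and fast fibre gene lists and the spike-in mean (y axis). Both MYF6 rows are highest in HP replicate 4 and lowest in HP replicate 6, and both MYOD1 rows are low in HP replicate 1 and LP replicate 5.

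In rodents MYOD1 transcripts are known to be richer in fast and MYOG transcripts in slow muscle, so the factors were set against the fibre type genes of the same pigs. The brighter MYOD1 probe set had a correlation of -0.01 with the mean of 8 fast fibre genes and -0.01 with that of 9 slow fibre genes. After quantile normalization these were -0.20 and -0.03. MYF5 had 0.55 with the fast and 0.37 with the slow list, and 0.47 and -0.05 after quantile normalization. On the deposited scale its values were 0.79 and 0.59 within HP, and -0.42 and -0.48 within LP. The brighter MYF6 probe set had 0.80 with the fast and 0.77 with the slow list, and 0.52 and 0.31 after quantile normalization. On the deposited scale its values were 0.86 and 0.88 within HP, and 0.39 and 0.08 within LP. The spike-in mean correlated with the fast list at 0.98 and with the slow list at 0.65, and after quantile normalization at 0.68 and -0.07. Its part in these values was not tested. MEF2A had 0.58 with the fast list and 0.41 with the slow list on the brighter probe set, and -0.41 and 0.00 after quantile normalization.

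The genes whose pattern was most like that of each factor were searched among 5620 genes detected on all arrays, by the Pearson correlation of deviations over the 11 pigs. As the highest of so many, these values are a selection, and nothing is read from them about shared control. MYF6 was closest to EI24 (0.98), an endoplasmic reticulum protein gene, to RHOB (0.95), a small GTPase gene, and to CPNE1 (0.94), a calcium-dependent phospholipid-binding protein gene. MYOD1 was closest to FANCF (0.93), of the Fanconi anaemia DNA repair pathway, to SP110 (0.89) and to TMEM222 (0.88). MYF5 was closest to MRPS7 (0.92), a mitochondrial ribosomal protein gene, to SAP30BP (0.91) and to GOSR2 (0.90), a Golgi transport gene. MEF2A was closest to CCDC47 (0.96), NOSTRIN (0.93) and UBE2H (0.91), and the latter pair fell to 0.25 and 0.57 after quantile normalization. The other 10 correlations lay between 0.85 and 0.97 on that scale.

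The share of the genes around the factors that passed the threshold was near that of all genes. Of 141 genes in 8 lists of partners, inhibitors, upstream factors, MEF2 regulators, targets, satellite cell genes and fibre genes, 72 were measured, each read by its brightest probe set. At the threshold in limma 2 were higher and 1 was lower in LP, or 4.17% of the 72. Over all 6765 genes 1.57% were higher and 3.16% lower. The median difference was -0.12 for the 72 and -0.04 for all genes. The part of the spike-in signal and of the RNA degradation measure in the 3 calls was not tested.

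SMYD1, a histone methyltransferase restricted to heart and skeletal muscle and listed among the MEF2 regulators, was higher in LP. Its level was 7.18, 7.60, 7.51, 6.88, 7.67 and 7.65 in HP replicates 1 to 6 and 8.03, 7.95, 7.88, 8.15 and 7.56 in LP replicates 1 to 5. All LP pigs but replicate 5 lay above every HP pig. The difference was 0.50 (standard error 0.17, 1.42-fold, exact permutation p = 0.0195, limma p = 0.0153). It passed without any single array, and did not pass with the spike-in covariate (0.40) or without HP replicates 1, 2 and 4 (0.31).

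NFATC1, the calcineurin-dependent factor known from slow fibres, was lower in LP on the same list. Its level was 8.63, 8.52, 8.07, 8.62, 8.67 and 8.27 in HP and 8.16, 8.08, 8.20, 8.10 and 8.13 in LP. HP replicate 3 was below all LP pigs, and the other HP pigs were above all of them. The difference was -0.33 (standard error 0.13, 1.26-fold, exact permutation p = 0.0303, limma p = 0.0271). It lost its call when HP replicate 1 (-0.30), HP replicate 5 (-0.29), LP replicate 2 (-0.32) or LP replicate 4 (-0.32) was left out, and also with the spike-in covariate (-0.21) or without HP replicates 1, 2 and 4 (-0.20). Of the other measured genes of this list, 11 of 13, MYOCD had the next smallest p and was near background (-0.89, exact permutation p = 0.102). MEF2D, another MEF2 factor, differed by -0.09 (exact permutation p = 0.558).

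ANKRD1, a stress-responsive ankyrin repeat gene of the sarcomere and the only one called among 27 measured targets, was higher in LP in limma alone. Its level was 10.61, 10.44, 10.82, 10.93, 11.34 and 10.97 in HP and 12.62, 12.11, 11.75, 10.16 and 11.76 in LP. In LP, 4 pigs lay above every HP pig and LP replicate 4 below all of them. The difference was 0.83 (standard error 0.37, exact permutation p = 0.0671, limma p = 0.0475). It passed in limma only without HP replicate 5 (0.93) or LP replicate 4 (1.21) among the 11 fits that left out 1 array, and after quantile normalization it was 0.91 and did not pass. Nor did it pass with the spike-in covariate (0.63) or without HP replicates 1, 2 and 4 (0.64). Its dimmer probe set, above the detection limit on 8 arrays, did not pass in limma (3.95, standard error 2.29). The cell cycle inhibitor gene CDKN1A, next by p, differed by -0.40 (limma p = 0.0570, exact permutation p = 0.0498). The median of the 27 targets was -0.21, and 0.00 after quantile normalization.

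None of the other lists had a member past the threshold in limma. Of the E proteins only TCF4 was measured (-0.14, exact permutation p = 0.732). Of 9 inhibitors, SNAI1 had the smallest p at a level near background (1.04, exact permutation p = 0.212), ahead of ID1, an inhibitor that binds the E proteins (-0.21, exact permutation p = 0.216). Among 3 upstream factors, SIX4 differed by -0.15 (exact permutation p = 0.403) and MEOX2 by -0.14 (exact permutation p = 0.487). The 12 measured satellite cell genes were all detected on every array, where 70.2% of all tested probe sets were. The list is not particular to satellite cells, as TEK is also an endothelium marker here, and PAX7 was not measured. Of these 12 genes the homing receptor CXCR4 (-0.29, exact permutation p = 0.195) and the adhesion gene VCAM1 (-0.33, exact permutation p = 0.236) had the smallest p. Of the slow fibre genes these were the calcium pump gene ATP2A2 (-0.24, exact permutation p = 0.160) and the light chain gene MYL2 (-0.25, exact permutation p = 0.195), and of the fast fibre genes the light chain gene MYL1 (-0.26, exact permutation p = 0.156) and MYOZ1 (-0.23, exact permutation p = 0.180). All 8 fast fibre genes lay below 0, with a median of -0.24, which became 0.00 after quantile normalization, while the slow list went from -0.21 to -0.01.

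**Figure D5:**
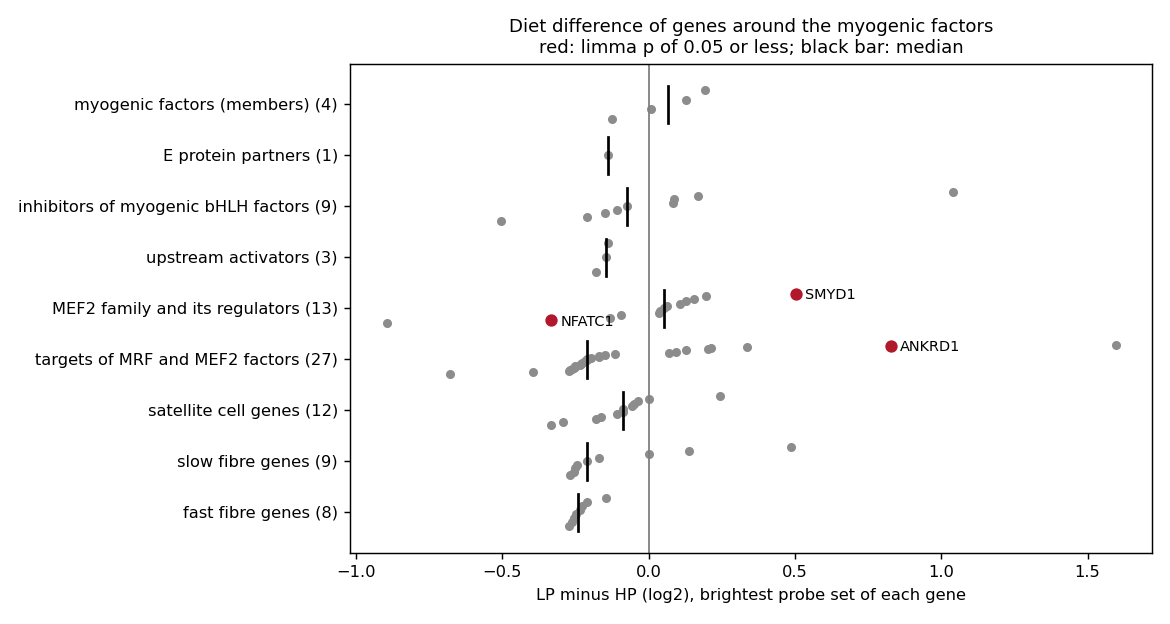
Difference LP minus HP (x axis, log2) of each measured gene of the myogenic factors and of 8 related lists (y axis, number of genes in brackets), each gene read by its brightest probe set, with the list's median as a black bar and genes at a limma p of 0.05 or less in red. SMYD1, NFATC1 and ANKRD1 are the called genes, and the fast fibre genes form a narrow band with a median of -0.24.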

How the data were processed

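Each array's deposited values are log2 levels, 1 per probe set, which the authors made in R and Bioconductor with puma named for fold changes. How they were background-corrected and normalized is not given in the sources used here. They were used as deposited. Of 24123 probe sets, 124 controls were left out. The platform annotation gives 1 symbol for 10069 of the rest, several for 198 and none for 13732.

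LP minus HP was fitted over all 23999 probe sets with limma 3.58.1 in R 4.3.3 (constant prior, two-sided), beside an exact permutation test. The fit was tested on simulated data with independent normal noise. These data held no signal shared across an array, so the test cannot speak for the fit where arrays carry one. As nothing in the labels says that replicate numbers pair the pigs, no block was used. The planned negative controls included dap, lys, phe and thr transcripts, but these were at 6.51 or more on average, as added spike-ins are, so 17 artificial Tag and 6 bacterial trp probe sets were used. The number of arrays limits the precision.

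The members and lists were chosen with earlier results of these data known. The text names all member probe sets. Of each list it names the genes past the threshold or, with none, the 2 with the smallest p, and for each factor the 3 genes most like it. CDKN1A, MYOCD, MEF2D, RGS5 and DCN were added after their values were seen. Alternatives were quantile normalization, median centring, a spike-in covariate, leaving out dim probe sets, raising values below the 20th percentile, array weights, a robust prior with a trend, leaving out each array, a block for the replicate number, leaving out HP replicates 1, 2 and 4, and the mean of a gene's probe sets. Detection was repeated with the 95th percentile of the controls, the 20th percentile of all probe sets and, chosen after seeing the data, the trp controls alone.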

Additional observations from a re-analysis of the deposited data

Results flagged for a closer look

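LP replicate 5 stood apart from the other LP pigs in MYF6. On the brighter probe set its level was 10.62 on the log2 scale, where the gap to the next LP pig took up 0.75 of the range of the 5 LP levels (Dixon's critical value 0.71). On the dimmer probe set it was 10.25, with a share of 0.777. Both probe sets read the same sequence record, so they are not independent. Without this pig the MYF6 difference was 0.09 on the brighter and 0.04 on the dimmer probe set, and neither passed the threshold in limma. Of the 14 groups checked, 2 stood out in this way, and chance gives about 1 in 20.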

How the results depend on the processing

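Of 151 values of the 7 differences under the alternatives, 138 kept their direction and their side of the threshold, 11 changed sign and 2 passed the threshold. The 2 are the brighter MYF6 probe set with the spike-in covariate (0.49) and without HP replicates 1, 2 and 4 (0.57), so 1 member was called in each of these fits. Not all of the 151 values could change direction. The permutation test, the robust prior with a trend, leaving out dim probe sets and raising low values gave back the same differences. Median centring hardly moved them, as the arrays already shared a median. The mean of a gene's probe sets was counted once for each of its probe sets. With array weights the differences of MEF2A turned to -0.029 on the brighter and -0.0010 on the dimmer probe set. Leaving out each array in turn gave -0.052 to 0.056 and -0.039 to 0.10 for these, and -0.28 to 0.011 and -0.27 to 0.059 for the brighter and dimmer MYOD1 probe sets. MYF5 (0.02 to 0.29) and MYF6 (0.05 to 0.37 and 0.04 to 0.36) stayed above 0. The causes were not tested. Detection on 11 of 11 arrays held under all 3 other limits, but only the limit from a percentile of all probe sets could have changed it. That limit lay between 2.49 and 2.95 on the log2 scale. The limits from a percentile of the negative controls and from the trp controls alone cannot lie above the brightest negative control. No probe set could lose its detection under them. With dim probe sets left out, MYF5 and the dimmer MYOD1 probe set had no value and 710 of the smaller tested set passed, and without HP replicates 1, 2 and 4, 1884 did. The number of called genes among the 72 was 1 to 7 when each array was left out, with 1 without HP replicate 1 and 7 without HP replicate 3.

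The levels showed no pairing of the pigs by replicate number. Same-numbered HP and LP arrays correlated in their deviations from the diet means at -0.07 to 0.08, and 1 of 5 LP arrays was closest to the HP array of its number. Pigs blocked on starting weight need not resemble each other in these levels, so the check cannot exclude a pairing. The fit with the replicate number as a block takes no difference from HP replicate 6, which has no LP partner. In it 1232 probe sets and none of the 7 passed, and the brighter MYF6 probe set differed by 0.05, the same value as without HP replicate 6 and no block. SMYD1 (0.55), NFATC1 (-0.37) and ANKRD1 (0.85) lost their calls under the block.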
